A study of Clonorchis sinensis with 4 samples.

Results

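Eggs and adult worms of the liver fluke Clonorchis sinensis were compared over every class of small RNA in their sequencing tables. The comparison took in all entries listed in either library, which were 167 miRNAs (55 known and 112 predicted), 5171 piRNAs, 217 Rfam families and 4 pooled classes, 5559 entries in all. The eggs listed 147 miRNAs, 3189 piRNAs and 168 Rfam families, against 152, 4573 and 158 in the adults. Both libraries were among the 4 of the series, whose other libraries came from metacercariae and from vesicles shed by adults.

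The egg library was labelled eggs and the adult library adult worms, both total RNA taken with Trizol, with no strain, host, age, sex or treatment stated. Since each stage is a single library, the differences reported are between these 2 libraries, without replicates, tests or p-values. Adult flukes are hermaphrodites that carry eggs in the uterus, so RNA of eggs can be part of the adult library, and its share was not tested. In such bulk samples fewer cells of a type and less RNA per cell cannot be told apart.

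A miRNA is a short RNA that pairs with messenger RNAs through its seed, the bases near its 5′ end, and lowers their output. In most animals piRNAs guide PIWI proteins against transposons in the germline, but PIWI genes have been reported as missing from parasitic flatworms, so "piRNA" is used here only as the class name in the deposited tables. Rfam is a catalogue of structured RNA families that holds ribosomal, transfer, nucleolar and spliceosomal RNAs and the hairpin precursors of miRNAs.

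Mature sequences were at hand for 5 of the 55 known miRNAs, from the deposited table of the vesicle library. They hold a member of the family that marks the eggs (miR-36), one that was lower in eggs than in adults (miR-10) and 3 set against them below. Capitals mark the seed, bases 2 to 8, and the 5 seeds are all different. The T in each stands for the U of the RNA.
miR-36a-3p: cCACCGGGtagacattcattcgc
miR-10-5p: aACCCTGTagacccgagtttgg
let-7-5p: gGAGGTAGttcgttgtgtggt
bantam-3p: tGAGATCGcgattaaagctggt
miR-2162-3p: tATTATGCaacgtttcactct

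The tables held 20541335 tags in eggs and 19404746 in adults, and the counts of all entries summed to those totals. The lowest listed predicted miRNA or piRNA had 10 tags, and those missing from a table can have up to 9, while known miRNAs and Rfam families were listed from 1 tag. The miRNAs made up 4339591 tags in eggs and 3567193 in adults, the piRNAs 98662 and 177879, and the Rfam families 369104 and 233178. Each entry was scaled to tags per 1000000 (RPM) both of its own class and of all tags in the table. A ratio of at least 4-fold whose exact 95% interval lay beyond 2-fold, with 10 or more tags in the higher library, was the limit for counting an entry as higher or lower in eggs. All intervals cover counting error only.

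The make-up of the libraries differed most outside the pooled classes. Known miRNAs were 14.9% of all tags in eggs and 16.1% in adults, whereas predicted miRNAs were 6.20% in eggs and 2.24% in adults, a ratio of 2.76. The piRNAs were 0.480% of egg tags and 0.917% of adult tags, a ratio of 0.524 (0.520 to 0.528). Eggs were thus richer in predicted miRNAs and poorer in piRNAs than adults. Within Rfam, rRNA fragments were 1.13% of egg tags and 0.674% of adult tags, and miRNA precursor families 0.337% and 0.119%. The snoRNA type went the other way, with 0.0149% in eggs (0.0144 to 0.0155) and 0.123% in adults (0.121 to 0.124). Fragments of tRNA (0.00954% in eggs and 0.0129% in adults) and of spliceosomal snRNA (0.0101% and 0.0104%) were scarce in both. Most tags fell in classes that the tables do not split further, and these differed little. Intergenic tags were 44.6% in eggs and 45.2% in adults, intron tags 22.1% and 23.1%, exon tags 7.36% and 8.34%, and repeat tags 2.49% and 2.90%.

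**Figure D1:**
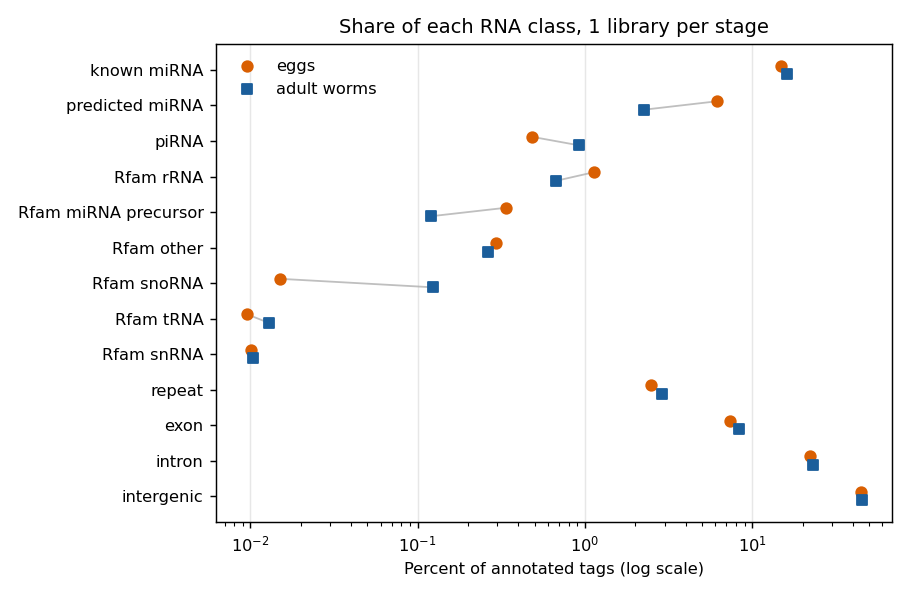
Percent of all tags in the table (x axis, log scale) for each RNA class (y axis) in the egg library (circles) and the adult library (squares), 1 library each. The widest gaps are in snoRNA (0.0149% in eggs and 0.123% in adults), miRNA precursors (0.337% and 0.119%) and predicted miRNAs (6.20% and 2.24%).

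Of the 161 miRNAs with at least 10 tags in either library, 13 were counted as higher in eggs (8.07%) and 37 as lower (23%), in RPM of miRNA tags. In RPM of all tags the numbers were 14 higher (8.7%) and 32 lower (19.9%), and they included all 13 and 32 of the 37. The extra higher one was novel_mir63, with 40 tags in eggs and none listed in adults. With median-of-ratios size factors 25 were higher and 20 lower, so which library had more depends on the scaling. The median log2 ratio of eggs over adults was -0.80 in RPM of miRNA tags and -0.60 in RPM of all tags. The 3 most abundant miRNAs held over 50% of the miRNA tags of eggs, and 2 did so in adults. In the eggs 14 miRNAs were needed to reach 90% of the tags, against 20 in the adults.

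**Figure D2:**
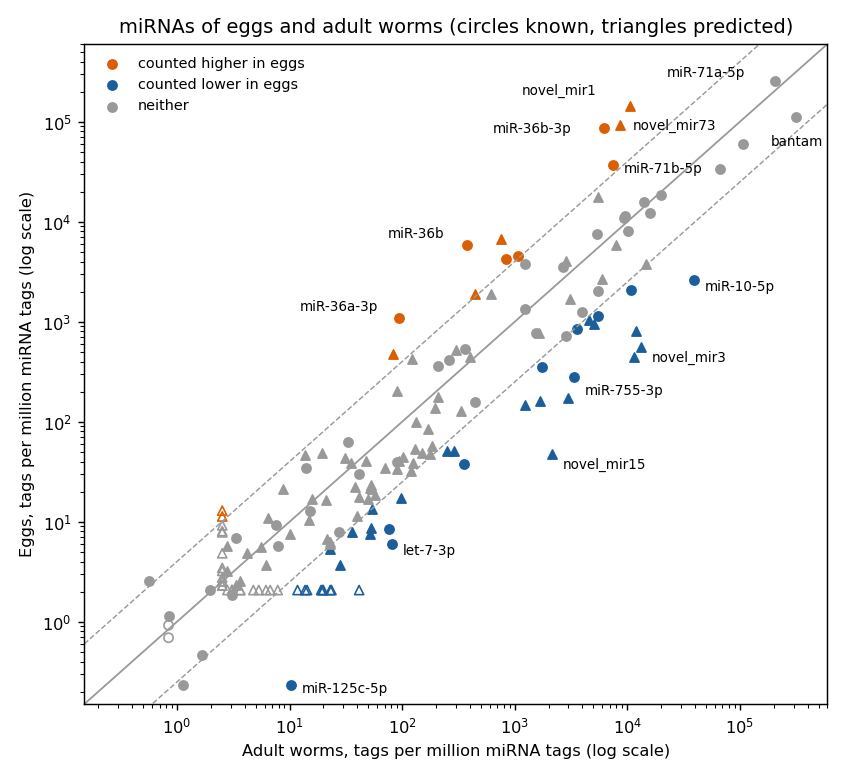
RPM of miRNA tags in eggs (y axis) against adults (x axis), both on log scales, for known (circles) and predicted (triangles) miRNAs. Open symbols have an unlisted value, drawn at 3 tags for known and 9 for predicted miRNAs, the solid line is equality and the dashed lines are 4-fold; the miR-36 members, novel_mir1 and novel_mir73 lie above the upper line, and miR-10-5p and novel_mir15 below the lower one.

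The miR-36 family, which acts in the embryo of Caenorhabditis elegans, was the known family most shifted towards eggs. Its 3 entries summed to 408992 tags in eggs, 9.42% of miRNA tags, and 23994 in adults, 0.673%. The entry miR-36b-3p had 378887 tags in eggs and 22306 in adults (14.0-fold, 13.8 to 14.1), and miR-36b had 25388 and 1353 (15.4-fold, 14.6 to 16.3). The entry miR-36a-3p, whose sequence is given above, had 4717 tags in eggs and 335 in adults (11.6-fold, 10.4 to 13.0). All 3 were high in the egg library and low in the adult one, by similar folds at levels that differed widely. miR-36b-3p and miR-36b are named after different species' entries, and the way tags were divided between them was not stated.

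The miR-2 and miR-71 families lie together in clusters of flatworm genomes, and their members did not move as one. miR-71b-5p had 159066 tags in eggs and 26787 in adults (4.88-fold, 4.82 to 4.94), but miR-71a-5p, the most abundant miRNA of the eggs, had 1109347 and 726689 (1.25-fold). Among miR-2 entries, miR-2d-3p had 18476 tags in eggs and 2972 in adults (5.11-fold) and miR-2c-3p 19751 and 3795 (4.28-fold). The most abundant member, miR-2a-3p, lay on the other side with 257270 tags in eggs and 379345 in adults (0.557-fold). Across the list of miR-71, miR-2 and miR-36 entries 6 of 13 were counted as higher (46.2%, against 8.07% of all miRNAs) and 0 as lower, with a median log2 ratio of 2.10 against -0.80 over all 161. Of these 6, 3 were the miR-36 entries above, 2 were of miR-2 and 1 of miR-71. The list was chosen with earlier results of these data known, so its share is a description only. By tags the list held 48.5% of miRNA tags in eggs and 35.1% in adults. The miR-71 family held 29.2% in eggs and 21.1% in adults, while the miR-2 family was lower in eggs, with 9.83% and 13.3%.

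The most abundant known miRNA counted as lower in eggs was miR-10-5p, whose gene lies in the Hox clusters of many animals. It had 11386 tags in eggs and 140715 in adults, 0.262% and 3.94% of miRNA tags (15.0-fold lower in eggs, 14.7 to 15.3). On the same list were miR-755-3p with 1211 tags in eggs and 11964 in adults (12.0-fold lower) and miR-8-3p, of the mir-8/mir-200 family, with 165 and 1265 (9.33-fold lower). miR-31-5p_1 (4914 tags in eggs and 19711 in adults) and miR-745-3p (1541 and 6236) were counted too, as was miR-3488, which is on no list (37 and 271). In every one of these the adult library was the higher. With median-of-ratios size factors, or scaled to known miRNAs alone, miR-31-5p_1 and miR-745-3p were no longer counted. Of 15 entries on the list of other conserved miRNAs 14 had at least 10 tags, and 5 of these were counted as lower (35.7%, against 23% of all miRNAs) and 0 as higher, with a median log2 ratio of -1.47. bantam, which promotes growth in Drosophila and was the most abundant miRNA of the adults, stayed under the 4-fold limit. It had 482658 tags in eggs and 1122549 in adults, 11.1% and 31.5% of miRNA tags (2.83-fold lower), and the separate entry bantam-3p had 683 and 1568 (2.79-fold lower). miR-2162-3p, the last of the sequences above, leaned to eggs with 149 and 50 tags (2.45-fold, 1.77 to 3.45).

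Heterochronic miRNAs time developmental steps in C. elegans, and all 3 such entries were lower in the egg library, as were 106 of all 161 miRNAs. Of the 3, 2 were counted as lower (66.7%, against 23% of all miRNAs), which is few entries to compare. let-7-5p, the main arm, had 3144 tags in eggs and 10145 in adults (3.93-fold lower, just under the limit). Its partner let-7-3p had 26 and 290 tags (13.6-fold lower, 9.07 to 21.1) and was counted, as was miR-125c-5p with 1 and 37 tags (45.0-fold lower, 7.59 to 1825). The 3p arm was 0.820% of let-7 tags in eggs (0.536 to 1.20) and 2.78% in adults (2.47 to 3.11). The 3p arm of miR-7 was likewise scarcer in eggs (0.339% of the pair, 0.290 to 0.393) than in adults (0.937%, 0.838 to 1.04). That of miR-71b had 11 tags in eggs and 2 in adults, and its shares overlapped within counting error. In the miR-2e pair the 5p arm was the scarce one, with 30 tags in eggs and 12 in adults, and its shares overlapped too.

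Among muscle miRNAs none of the 5 miR-1 and miR-133 entries was counted, where 8.07% of all miRNAs were higher and 23% lower, with ratios between 0.494 (miR-1b-3p) and 1.46 (miR-1_1). miR-1, the main muscle miRNA of animals, had 79887 tags in eggs and 71696 in adults (0.916-fold in RPM of miRNA tags and 1.05-fold in RPM of all tags). Of 8 nervous system entries 2 were counted as lower (25%, near the 23% of all miRNAs), both of miR-219. miR-219-5p_1 had 9108 tags in eggs and 38141 in adults (5.09-fold lower), and miR-219-5p had 3713 and 12884 (4.22-fold lower, or 3.67-fold and not counted in RPM of all tags). Neither was counted with median-of-ratios size factors. The neuronal miR-124a-3p had 32454 tags in eggs and 19201 in adults (1.39-fold), miR-7-5p 50040 and 34271 (1.20-fold), and miR-96-5p 15291 and 9645 (1.30-fold). These 3 lay slightly above equality in eggs under either scaling.

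Predicted miRNAs, numbered novel_mir in the tables, held 29.3% of miRNA tags in eggs and 12.2% in adults. The excess came from 2 entries. novel_mir1 (scaffold NW_008751893, 603415 to 603479) had 629565 tags in eggs and 37572 in adults (13.8-fold, 13.6 to 13.9), and novel_mir73 (LN627598, 1961 to 2031) had 404503 and 30953 (10.7-fold, 10.6 to 10.9). Without these the predicted miRNAs held 5.50% of miRNA tags in eggs and 10.3% in adults, so the other predicted miRNAs summed to less in eggs.

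By number, 7 of the 112 predicted miRNAs were counted as higher in eggs (6.25%) and 27 as lower (24.1%), near the 8.07% and 23% of all 161 miRNAs. Besides those above, novel_mir76 had 28993 tags in eggs and 2718 in adults (8.77-fold), novel_mir80 had 2047 and 295 (5.70-fold) and novel_mir100 had 8133 and 1579 (4.23-fold). novel_mir60 and novel_mir157 had 56 and 49 tags in eggs and were not listed in adults. They were at least 5.11-fold (2.51 to 11.8) and 4.48-fold (2.18 to 10.4) higher. Among the lower ones, novel_mir15 (DF143035, 439360 to 439422) had 206 tags in eggs and 7605 in adults, the widest gap among the predicted ones (44.9-fold lower, 39.1 to 51.8). novel_mir3 had 2420 and 47431 tags (23.8-fold lower) and novel_mir74 had 3532 and 43010 (14.8-fold lower). A further 9 of the 27 were not listed in eggs. Of these novel_mir52 had 148 tags in adults and was at least 20.0-fold lower in eggs (10.3 to 44.6). novel_mir57 had 84 and was at least 11.4-fold lower (5.70 to 25.7).

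One pair of predicted miRNAs lay within 10000 bases of each other, and both were counted as lower in eggs. novel_mir12 (NW_008751832, 1040091 to 1040173) and novel_mir148 (1040276 to 1040359) are 103 bases apart. novel_mir12 had 751 tags in eggs and 10707 in adults (17.3-fold lower), and novel_mir148 had 1932 and 41013 (25.8-fold lower). By scaffold name, DF scaffolds held 61 of the 112, of which 1 was counted as higher and 15 as lower (24.6%), and NW_008 scaffolds held 36, of which 2 were higher and 8 lower (22.2%). The builds behind these names were not given in the sources used here.

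Of the 217 Rfam families 143 had fewer than 10 tags in both libraries. Of the remaining 74, 9 were counted as higher in eggs (12.2%) and 9 as lower (12.2%) in RPM of Rfam tags, with a median log2 ratio of 0.02. In RPM of all tags the same 9 and 3 more were higher (16.2%) and 6 lower (8.11%), all of them among the 9, and the median was 0.60. The 3 more were mir-71, the histone stem-loop and snoR20a (16 tags in eggs and 1 in adults), and the 3 no longer lower were mir-138, mir-9/mir-79 and the L19 leader. Both medians were positive, and they differed because Rfam tags as a whole were 1.80% of all tags in eggs and 1.20% in adults.

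**Figure D3:**
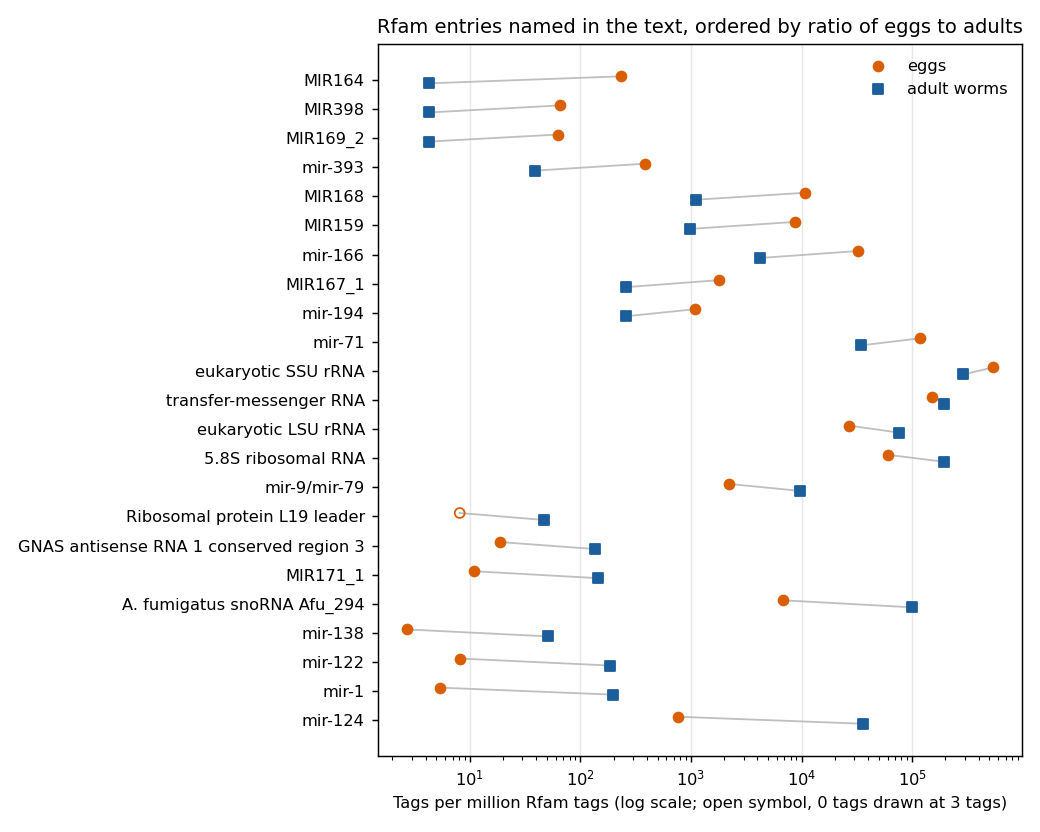
RPM of Rfam tags (x axis, log scale) in eggs (circles) and adults (squares) for the named Rfam families (y axis), from the highest ratio of eggs to adults at the top to the lowest at the bottom. The open symbol had 0 tags and is drawn at 3 tags; 8 plant miRNA families and mir-194 lead at the top, and mir-124, with 282 tags in eggs and 8471 in adults, is at the bottom.

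Ribosomal fragments were the largest Rfam group in both libraries and came from the same 3 rRNAs in different proportions. The small subunit rRNA of eukaryotes had 199293 tags in eggs and 67279 in adults, 85.9% and 51.4% of rRNA tags. The 5.8S rRNA had 22176 tags in eggs and 45184 in adults, 9.56% and 34.5% of rRNA tags, and the large subunit rRNA had 10016 and 17768, 4.32% and 13.6%. Egg rRNA fragments were mostly of the small subunit, while adult ones were split between the small subunit, 5.8S and the large subunit. Without the small subunit, rRNA was 8.86% of Rfam tags in eggs and 27.2% in adults, and 0.486-fold as high in eggs in RPM of all tags. No rRNA entry reached the 4-fold limit. The mature small subunit rRNA is far longer than a tag, so these tags are fragments.

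The lower snoRNA share of eggs rested on 1 entry. The family named A. fumigatus snoRNA Afu_294 had 2521 tags in eggs and 23084 in adults (14.5-fold lower in RPM of Rfam tags, 13.9 to 15.1, and 9.69-fold in RPM of all tags). Scaled to the snoRNA type, of which it held 82.1% in eggs and 97.0% in adults, it was 1.18-fold lower and not counted. Since it makes up most of that total, this scaling says little about its own level. The family is named after a fungus, Aspergillus fumigatus, and which organism the tags came from was not tested. All other snoRNA families summed to 548 tags in eggs and 722 in adults, 0.717-fold as high in eggs in RPM of all tags. Of these Z101 had 283 tags in eggs and 461 in adults, and SNORD57, which guides rRNA methylation in mammals, had 69 and 118. The snoRNA class of eggs was thus lower mainly through a single family.

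None of the other housekeeping RNAs named here was counted in RPM of Rfam tags. U6, a core RNA of the spliceosome, had 2001 tags in eggs and 1979 in adults (0.955-fold in RPM of all tags). The signal recognition particle RNA, which directs secreted proteins to the endoplasmic reticulum, had 1144 tags in eggs and 2558 in adults (0.422-fold). tRNA fragments had 1959 and 2498 tags (0.741-fold) and Y RNA, a partner of the Ro protein, 224 and 99 (2.14-fold). The histone 3' UTR stem-loop, the end of histone messages made during DNA replication, had 77 tags in eggs and 13 in adults. It was 3.74-fold higher in eggs in RPM of Rfam tags (2.06 to 7.34) and 5.60-fold in RPM of all tags, where it was counted.

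In RPM of Rfam tags, families of plant miRNAs supplied 8 of the 9 Rfam entries counted as higher in eggs. Scaled to the total of each Rfam type, 12 entries were higher, of which 5 were among the 9, all of them plant families. The rest of the 12 were the histone stem-loop and snoRNA families such as Z101 (4.76-fold within the snoRNA type). mir-166, which patterns leaves in plants, had 11948 tags in eggs and 985 in adults (7.66-fold, 7.18 to 8.19). MIR168, which targets an Argonaute gene in plants, had 3932 tags in eggs and 257 in adults (9.67-fold), and MIR159 had 3240 and 230 (8.90-fold). All were high in eggs and low in adults. MIR167_1 had 665 tags in eggs and 61 in adults (6.89-fold) and mir-393 had 142 and 9 (9.97-fold, 5.10 to 22.2). MIR164 (86 tags in eggs and 1 in adults, 54.3-fold, 9.49 to 2171), MIR398 (24 and 1, 15.2-fold, 2.47 to 623) and MIR169_2 (23 and 1, 14.5-fold, 2.36 to 599) rested on few tags. Scaled to the precursor type, MIR167_1, MIR398 and MIR169_2 were not counted. MIR171_1 went the other way with 4 tags in eggs and 34 in adults (13.5-fold lower, 4.80 to 52.2). The 13 plant families together had 20068 tags in eggs and 1588 in adults, 977 and 81.8 RPM of all tags, and were 5.44% and 0.681% of Rfam tags.

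Marker families of plants, vertebrate hosts and bacteria were summed in each library. Of 6 plant markers 4 were detected in both libraries and miR156 and miR162 were listed in neither, with a sum of 963 RPM of all tags in eggs and 79.0 in adults, against 3.76 in metacercariae. Of 15 vertebrate host markers 7 were detected in each library, summing to 99.7 in eggs and 72.2 in adults. miR-21, miR-223, miR-148, miR-486, miR-142, miR-150 and miR-145 were listed in neither. Of 6 bacterial markers 4 were detected in eggs and 3 in adults, summing to 2769 and 2353 RPM, nearly all of it transfer-messenger RNA, which frees stalled bacterial ribosomes. That family had 56333 tags in eggs and 45266 in adults, the second most abundant in both libraries. The plant sum was 12.2-fold higher in eggs in RPM of all tags, against 1.38-fold for the host sum and 1.18-fold for the bacterial one. Of the host sum of 2048 tags in eggs and 1401 in adults, the mir-8/mir-141/mir-200 family held 1251 and 703. Bacterial small subunit rRNA had 99 tags in eggs and 39 in adults, and bacterial large subunit rRNA 245 and 299. The part of plant, host or bacterial RNA in any result here was not tested.

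Host markers were mixed in direction. mir-194, a family abundant in vertebrate gut and liver, had 403 tags in eggs and 61 in adults (4.17-fold, 3.18 to 5.56), but scaled to the precursor type it was 2.21-fold higher and not counted. mir-122, the main miRNA of vertebrate liver, had 3 and 43 (22.7-fold lower in eggs, 7.26 to 114). The red cell miRNA family mir-451 had 326 tags in eggs and 539 in adults (0.382-fold, not counted). The mir-8/mir-141/mir-200 family had 1251 and 703 tags, and miR-8, which flukes have too, belongs to it. mir-194 and mir-122 thus lay on opposite sides of equality.

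Rfam precursor families and mature miRNAs did not always tell the same story. The mir-124 precursor family had 282 tags in eggs and 8471 in adults (47.5-fold lower, 42.2 to 53.7), the widest gap among Rfam entries counted as lower, while mature miR-124a-3p and miR-124b-5p (1555 and 750 tags) were above equality in eggs. In metacercariae the family had 568259 tags. The mir-1 family had 2 tags in eggs and 46 in adults (36.4-fold lower, 9.52 to 310), while mature miR-1 was near equal. The mir-71 family went with its mature members, with 43402 tags in eggs and 8120 in adults (3.38-fold, and 5.05-fold and counted in RPM of all tags). How tags were divided between the mature miRNAs and the precursor families was not stated. The others counted as lower were mir-9/mir-79, mir-138, a GNAS antisense region and the ribosomal protein L19 leader. mir-9/mir-79 had 813 tags in eggs and 2239 in adults (4.36-fold lower), and mir-138 had 1 and 12 (19.0-fold lower, 2.81 to 812). The GNAS region had 7 and 32 tags, and the L19 leader 0 and 11 (at least 5.80-fold lower, interval from 3.97).

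The piRNA class was lower in eggs as a whole, and 50 of its 65 loci with at least 10 listed piRNAs kept within 2-fold of their share. All 5171 entries carry the label LTR/Gypsy, a family of retrotransposons that move through an RNA copy, and lie in 170 loci on 146 scaffolds. Entries listed in eggs had a median of 19 tags and a maximum of 880, those in adults a median of 22 and a maximum of 823. No entry dominated, since the most abundant held 0.892% of the piRNA tags of eggs and 0.463% of those of adults. It took 562 entries to reach 50% of the tags in eggs and 708 in adults. Entries of loci labelled plus held 70.1% of piRNA tags in eggs (69.8 to 70.4) and 64.7% in adults (64.5 to 64.9). The sign is part of the Gypsy locus label, and the strand of each piRNA itself was not stated.

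Of the 5171 piRNAs 2591 were listed in both libraries, 598 in eggs alone and 1982 in adults alone. The entries of one library alone were scarce, with medians of 13 tags in eggs and 15 in adults, close to the listing limit of 10. The shared entries summed to 89987 tags in eggs and 140436 in adults, 4381 and 7237 RPM of all tags, a ratio of 0.605. In RPM of all tags 644 of them lay above equality in eggs and 1947 below, with a median log2 ratio of -0.62. In RPM of piRNA tags 1639 lay above and 952 below, with a median of 0.31, and 69.5% were within 2-fold. Most shared piRNAs were within 2-fold of their share of the class, and the direction of the median turned with the scaling. Sharing needs 10 tags in both libraries, which removes scarce entries with large ratios, so it cannot show closeness for the whole class.

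**Figure D4:**
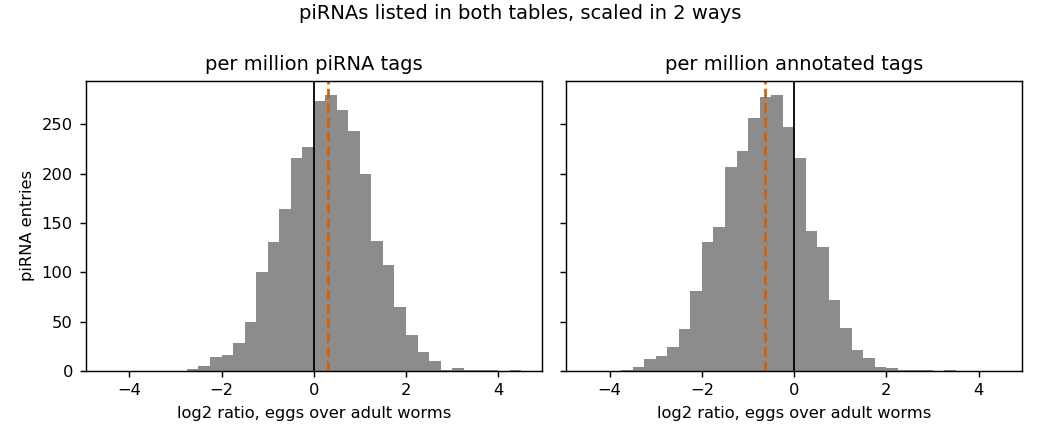
Histograms of the log2 ratio of eggs over adults (x axis) for the 2591 piRNAs listed in both libraries (y axis, number of entries), in RPM of piRNA tags at left and in RPM of all tags at right. The black line is equality and the dashed line the median, which is 0.31 at left and -0.62 at right.

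In RPM of piRNA tags 123 of 5171 entries were counted as higher in eggs (2.38%) and 40 as lower (0.774%). In RPM of all tags the numbers were 12 (0.232%) and 337 (6.52%). The 12 and the 40 were counted under both scalings. The largest gains were novel_pir3977 with 139 tags in eggs and 13 in adults (19.3-fold in RPM of piRNA tags, 10.9 to 37.1), novel_pir3982 with 161 and 20 (14.5-fold) and novel_pir4972 with 82 and 12 (12.3-fold). novel_pir3977 and novel_pir3982 come from the locus on DF143974.1 and novel_pir4972 from that on DF142881.1. Next were novel_pir1666 with 64 and 11 tags (10.5-fold) and novel_pir2465 with 45 in eggs and none listed in adults (at least 9.01-fold, 4.35 to 21.0).

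The largest losses were mostly of entries not listed in eggs. novel_pir1991 had 159 tags in adults and novel_pir2015 130. They were at least 9.80-fold (5.03 to 21.8) and 8.01-fold (4.09 to 17.9) lower in eggs. Both come from a locus on DF143043.1 that is labelled minus. novel_pir552 of DF143495.1 was listed in both, with 10 tags in eggs and 119 in adults (6.60-fold lower, 3.47 to 14.1). novel_pir262 and novel_pir264 of DF143346.1 had 107 and 97 tags in adults. They were at least 6.59-fold (3.35 to 14.8) and 5.98-fold (3.02 to 13.5) lower. The entries above were picked for their large ratios, so the most abundant piRNAs are given without comparing the 2 sets. novel_pir5480, the most abundant in eggs, had 880 tags in eggs and 628 in adults (2.53-fold, 2.28 to 2.80), and novel_pir887, the most abundant in adults, had 172 and 823 (2.65-fold lower, 2.25 to 3.15). Of the 5 most abundant in eggs 1 was counted in RPM of piRNA tags, novel_pir1337 with 514 tags in eggs and 193 in adults (4.80-fold). In RPM of all tags novel_pir1337 was 2.52-fold higher and not counted, while novel_pir887 was 5.07-fold lower and counted. Also counted there was novel_pir1649, among the 5 most abundant in adults, with 190 tags in eggs and 723 in adults (4.03-fold lower).

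At the level of loci the libraries were close in RPM of piRNA tags, a scaling that sets aside the lower piRNA total of eggs. Of 65 loci with at least 10 listed piRNAs, 29 lay above equality in eggs and 36 below in RPM of piRNA tags, and 50 were within 2-fold. In RPM of all tags, which keeps that lower total, 5 of the 65 lay above equality, so the closeness is one of shares within the class. The 3 largest loci, on DF143974.1, DF142881.1 and DF143043.1, together held 36.3% of the piRNA tags of eggs and 31.3% of those of adults. The DF142881.1 locus (693483 to 694702) held 14.2% in eggs and 10.1% in adults and the DF143974.1 locus (133707 to 136377) 15.1% and 12.9%. The DF143043.1 locus (510899 to 512225) held 6.95% in eggs and 8.38% in adults. DF142881.1 had 36 higher entries among its 735 and DF143974.1 had 28 among its 599, beside 3 lower entries each, where 2.38% of all piRNAs were higher and 0.774% lower. Of these higher ones 4 and 3 stayed higher in RPM of all tags, where 21 and 36 entries of the loci were lower. In that scaling 0.232% of all piRNAs were higher and 6.52% lower, so lower entries were common in the whole class.

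**Figure D5:**
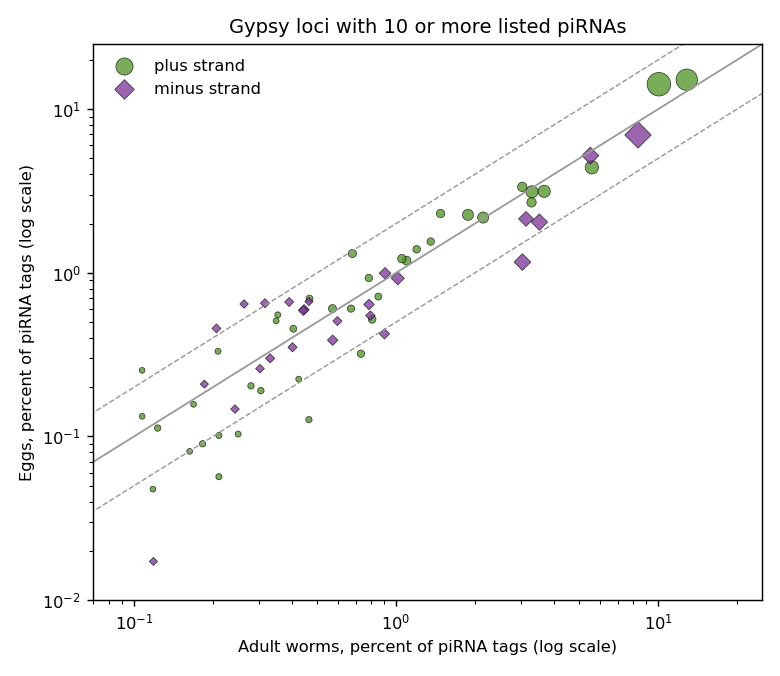
Percent of piRNA tags in eggs (y axis) against adults (x axis), both on log scales, for the 65 Gypsy loci with at least 10 listed piRNAs. Circles are loci labelled plus, diamonds loci labelled minus, and larger symbols hold more listed piRNAs. The solid line is equality and the dashed lines 2-fold, and 50 of the 65 loci lie between the dashed lines.

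The sum over a locus also depends on how many of its piRNAs reached the listing limit, so ratios over entries listed in both libraries are given beside it. On DF143495.1 the locus at 160297 to 160685 held 1.16% of piRNA tags in eggs and 3.03% in adults (0.383-fold), and 0.571-fold over its 41 shared entries. It listed 45 piRNAs in eggs and 155 in adults. The locus on DF144993.1 (9282 to 10437) was 2.06-fold higher in eggs, and 1.92-fold over 16 shared entries. The lowest ratio among the 65 loci, 0.145 on DF143364.1, rested on 1 piRNA listed in eggs, whose own ratio was 0.758. Over shared entries 47 of the 65 loci lay closer to equality and 18 farther from it. Among the 18 was a locus on DF143421.1 (26825 to 28187), 0.914-fold over all its entries and 2.31-fold over 4 shared ones. Because sharing removes scarce entries with large ratios, the 47 do not test whether the loci were alike.

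The metacercaria library, scaled to RPM of each class, was set beside the entries that separate eggs from adults. Of the 13 miRNAs counted as higher in eggs 8 were lower still in metacercariae than in adults, 3 lay between, 0 lay above the eggs, and 2 were listed in neither adults nor metacercariae. novel_mir1 had 46 tags in metacercariae, and novel_mir76 was not listed there. The miRNAs were 41.8% of all metacercaria tags, so RPM of all tags places miRNAs of metacercariae higher. By that scaling novel_mir80 was highest in metacercariae, with 99.7 in eggs, 15.2 in adults and 188 in metacercariae. novel_mir73 then lay between, with 19692 in eggs, 1595 in adults and 2539 in metacercariae. Of the 37 miRNAs lower in eggs 17 lay between, 9 were above the adults and 6 below the eggs, while 5 could not be ordered, 4 of them listed in adults alone. Of the 123 piRNAs higher in eggs 68 lay between, 7 above the eggs and 8 below the adults, and 40 could not be ordered because of unlisted values, 33 of them listed in eggs alone. Of the 40 lower piRNAs 27 lay between and 5 could not be ordered. Of the 9 Rfam families higher in eggs 8 were lowest in metacercariae, and the other, MIR398, lay between with 3 tags there. In RPM of all tags mir-194 lay between too, with 19.6 in eggs, 3.14 in adults and 5.32 in metacercariae. So did MIR164, with 2 tags in metacercariae. Most of the Rfam tags of metacercariae were of mir-124, which lowers the RPM of the other families. In RPM of its class each miRNA or Rfam family counted as higher in eggs was thus highest there among the 3 stages, and 7 of the 123 piRNAs were not.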

How the data were processed

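The authors deposited raw tag counts per entry, and a column of RPM, which equals the count times 1000000 over the total that the count column names, per the file headers. Per the labels' protocols total RNA was taken with Trizol and libraries followed Illumina procedures. Aligner, class annotation, piRNA caller and builds were not given in the sources used here. The deposited counts of each stage summed to the header total, and its miRNA and piRNA tables held the same entries. For the vesicle library only mature sequences were taken from its deposited miRNA table, where a single column of counts (1) belongs to another species and was not used.

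Counts were analysed in Python 3.11.15 with pandas 2.3.3, numpy 2.4.6 and SciPy 1.17.1, and plotted with matplotlib 3.10.9. Ratios of eggs over adults used the class total (miRNA, piRNA or Rfam) and, beside it, the header total. Intervals of ratios are exact conditional binomial ones at 95%, and intervals of shares are Clopper-Pearson. Both cover counting error only, as tags without molecular identifiers cannot be taken as independent molecules. A count of 0 allows 3 tags, which is 0.691 RPM of miRNA tags in eggs and 0.841 in adults, and 8.13 and 12.9 RPM of Rfam tags. Unlisted known miRNAs and Rfam families were set to 3 tags and unlisted predicted miRNAs and piRNAs to 9. Folds on such values are lower bounds apart from counting error, and their intervals reach lower. For unlisted predicted miRNAs and piRNAs the intervals were taken at 9 tags.

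Named entries were the 10 largest ratios each way (5 for piRNAs) among counted entries with a mean of at least 10 RPM of the class, the 5 most abundant of each library, the counted list members, the largest loci and the Rfam groups. miR-3488, novel_mir63, novel_mir100, novel_mir60, novel_mir157, the near-equal list members and further Rfam families outside the rule were named after their values were seen. The members and lists were chosen with earlier results of these data known. The base of the percentages was set, after values were seen, to entries with at least 10 tags in either library. Alternatives were other scalings, a pseudocount, a minimum of 50 tags and entries listed in both libraries.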

Additional observations from a re-analysis of the deposited data

How the results depend on the processing

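With 1 library per stage no library can be left out. No paired analysis was possible because the labels carry no replicate numbers and each stage is 1 library. With median-of-ratios size factors, which shift the log2 ratios by 0.84 for miRNAs and -0.31 for piRNAs, 25 miRNAs were higher in eggs and 20 lower, and 56 piRNAs higher and 80 lower, against 13, 37, 123 and 40 in RPM of the class. The header total shifts piRNA log2 ratios by -0.93 and gave 12 piRNAs higher and 337 lower. A minimum of 50 tags left 33 piRNAs higher and 3 Rfam families lower, and entries listed in both libraries 70 piRNAs higher and 21 lower, each by testing fewer entries. Without small subunit rRNA in the total 14 Rfam families were higher. Among alternatives chosen after seeing the data, known miRNAs scaled to their own total gave 6 higher and 7 lower. In RPM of miRNA tags the same known miRNAs gave 6 and 10. Leaving out plant families and transfer-messenger RNA, which removes 8 of the 9, left 1 Rfam family higher. The total of each Rfam type, also chosen after seeing the data, gave 12 higher, of which 5 were among the 9, and 11 lower, of which 8 were. Lost were mir-194, MIR167_1, MIR398, MIR169_2 and Afu_294, the last of which makes up most of its own type total. The other alternatives kept these counts within 1.5 times. Without the pooled classes in the denominator the shares in eggs and adults were 90.3% and 89.7% for miRNAs, 2.05% and 4.47% for piRNAs, and 7.68% and 5.86% for Rfam families. Without rRNA they were 21.4% and 18.5%, 0.486% and 0.923%, and 0.675% and 0.531%. Entries near 10 tags are limited by depth, and an unlisted piRNA or predicted miRNA is not shown to be absent.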
